A study of Mus musculus with 6 samples.

Results

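Cholesterol synthesis and its control by the transcription factor SREBP2 were followed through 28 genes, taken from the 23282 gene symbols of a macrophage RNA-seq table. A gene was included when its symbol was on the list, and where a symbol had several transcripts the one with the highest mean over the 6 libraries was used; the list itself was drawn up with earlier results of these data known. By role, 8 genes encode enzymes of the mevalonate and isoprenoid steps, 12 encode enzymes that carry squalene to cholesterol, 6 control SREBP processing and 2 handle sterols. Sc4mol is the table's name for the gene now called Msmo1. The RNA was polyadenylated RNA of thioglycollate-elicited peritoneal macrophages, cells recruited into the mouse abdomen by an irritant, from female C57BL/6 mice. Cells received control, Smyd5 or Phf2 siRNA for 48 hours and then vehicle or 100 ng per ml KLA for 4 hours, and each of the 6 combinations was represented by 1 library. The labels do not spell out KLA, and the design text names the agent as LPS, a bacterial lipid sensed by the receptor TLR4. The sources used here give neither mouse age and number nor the animals or cultures behind each library. The p-values therefore cover the spread between these libraries alone, which may be technical. With 1 library per combination, that spread is what an additive fit of siRNA and agent leaves over. It also holds any difference between arms in the KLA response.

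SREBP2, the product of Srebf2, is made as a precursor in the membrane of the endoplasmic reticulum, where it is held by its escort protein SCAP. When sterols are plentiful the INSIG proteins keep SCAP in place; when they fall, SCAP carries the precursor to the Golgi, and the site-1 and site-2 proteases release the part that enters the nucleus and switches on the genes of cholesterol synthesis and uptake. Insig1 and Srebf2 are themselves targets of this factor, so the pathway feeds back on its own control genes. Macrophages also take up cholesterol from particles and dead cells, store it as esters and export it, and TLR4 signals are known to alter several of these routes.

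The siCtl- and siSmyd5-labelled libraries held 919338 to 1429509 reads. The siPhf2-labelled libraries held 577054 (vehicle) and 420149 (KLA), but 66.7% and 71.6% of them came from Rn45s, the precursor of ribosomal RNA, whose share in any other library was 1.2% or less; this left 192420 and 119144 other reads. The totals in the file headers fit the siCtl columns only if those printed for siPhf2 are used, and the reverse, so which of these columns is the control cannot be told apart; libraries are called by their labels, and each siRNA call is also given with those 2 names exchanged, where siPhf2 directions turn about by construction. Reads of Smyd5 numbered 44 (vehicle) and 29 (KLA) under siCtl, 9 and 20 under siSmyd5, and 3 and 0 under siPhf2, and those of Phf2 113 and 120, 52 and 34, and 29 and 8. Neither target passed the test under its own siRNA, with a log2 fold of −0.64 for Smyd5 (edgeR quasi-likelihood test, Benjamini-Hochberg adjusted p 0.384) and 0.90 for Phf2 (adjusted p 0.0969), so the labels are not borne out by the targets and no direction below is drawn from a knockdown. The 4 TLR4 response genes Tnf, Il1b, Cxcl10 and Nos2 rose with KLA by averaged log2 folds of 6.73 to 8.23 and were called higher in each arm. Their KLA log2 ratios ran from 6.92 to 8.88 under siCtl, 5.73 to 8.16 under siSmyd5 and 4.38 to 5.39 under siPhf2. These 4 were also called higher under siPhf2 than under siCtl, with a median log2 fold of 2.13. Under vehicle alone their siPhf2 to siCtl log2 ratios were 2.85 to 4.82. All 9 macrophage markers had reads in every library, and their summed level was 3767.9 to 5516.5. Summed levels of other cells' markers were 5.29 to 16.3 for B cells, 0 to 23.1 for mast cells, 0 to 4.06 for T cells, 0 to 14.4 for dendritic cells and 0 to 1.98 for eosinophils. Of the defining markers Prg2 and Epx (eosinophils) and Flt3 (dendritic cells) had 0 reads in all 6 libraries, whereas Zbtb46, another dendritic cell marker, had 20, 13 and 2 reads under KLA and 1, 1 and 0 under vehicle. The part of these cells in the member values was not tested.

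Levels are given on a common scale of TMM-adjusted library sizes (CPM), which sets the bulk of genes level between libraries. They are not divided by transcript length, so they compare libraries for a gene and not one gene with another. Of the 28 genes 21 had a mean of at least 10 reads per library and were tested; the 7 others were Acat2, Hmgcs1, Pmvk, Idi1, Tm7sf2, Hsd17b7 and Stard4. Hmgcs1, which makes the precursor of mevalonate, had 0 reads in all 6 libraries, and the table gives its transcript 2 places in the genome; a count of 0 there says nothing on its expression. Idi1, the isopentenyl isomerase, had at most 5 reads in any library. Acat2, a thiolase that supplies acetoacetyl-CoA, had 5, 13 and 0 reads under vehicle and 0, 3 and 2 under KLA with siCtl, siSmyd5 and siPhf2, and Tm7sf2, a sterol reductase, had 13, 16 and 3 and then 9, 10 and 0. Hsd17b7, a sterol ketone reductase, had 11, 8 and 0 under vehicle and 12, 5 and 0 under KLA. These counts are too small to describe a difference. Pmvk, the phosphomevalonate kinase, had 3 and 5 reads under siCtl, 10 and 14 under siSmyd5 and 0 and 1 under siPhf2. Its siSmyd5 to siCtl ratios were 5.37 (1.38 to 30.4) under vehicle and 4.48 (1.53 to 15.9) under KLA. With a mean of 5.5 reads it lay under the filter and was not tested in the main fit. In the edgeR fit with no filter Pmvk was 1 of 6 members called higher under siSmyd5. That fit called 284 genes higher and 426 lower of 14963.

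Promoter windows are shown for the 6 genes on which the siRNA and KLA comparisons turn, the members that passed an averaged test with the smallest p-values and had a window. They are RefSeq sequences of build GRCm38.p6, from 250 bases before the transcription start to 50 after it, printed 5′ to 3′ on the gene's strand, with capitals marking the CCAAT box, which the SREBP partner NF-Y binds, or its reverse complement ATTGG. The windows lie at chr8:64733529-64733828, minus strand (Sc4mol), chr5:4104648-4104947, minus strand (Cyp51), chr15:82147019-82147318, plus strand (Srebf2), chr9:42264251-42264550, minus strand (Sc5d), chr5:28071162-28071461, plus strand (Insig1) and chr9:110333038-110333337, plus strand (Scap).
Sc4mol: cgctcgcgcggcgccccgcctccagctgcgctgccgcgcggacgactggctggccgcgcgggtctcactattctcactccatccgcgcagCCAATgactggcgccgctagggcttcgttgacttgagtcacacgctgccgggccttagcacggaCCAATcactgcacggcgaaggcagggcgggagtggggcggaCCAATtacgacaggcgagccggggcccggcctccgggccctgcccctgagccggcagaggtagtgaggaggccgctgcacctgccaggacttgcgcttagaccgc
Cyp51: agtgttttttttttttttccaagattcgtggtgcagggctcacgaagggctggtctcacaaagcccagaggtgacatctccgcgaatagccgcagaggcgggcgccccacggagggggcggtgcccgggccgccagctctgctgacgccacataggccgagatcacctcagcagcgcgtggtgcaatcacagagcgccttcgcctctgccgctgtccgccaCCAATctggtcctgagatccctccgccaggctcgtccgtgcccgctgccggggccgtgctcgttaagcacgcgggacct
Srebf2: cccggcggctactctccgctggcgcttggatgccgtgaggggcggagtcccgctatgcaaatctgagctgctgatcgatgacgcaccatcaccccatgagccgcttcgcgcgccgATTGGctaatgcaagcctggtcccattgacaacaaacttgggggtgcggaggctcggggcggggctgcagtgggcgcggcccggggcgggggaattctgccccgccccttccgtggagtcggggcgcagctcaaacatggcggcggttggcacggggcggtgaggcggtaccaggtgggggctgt
Sc5d: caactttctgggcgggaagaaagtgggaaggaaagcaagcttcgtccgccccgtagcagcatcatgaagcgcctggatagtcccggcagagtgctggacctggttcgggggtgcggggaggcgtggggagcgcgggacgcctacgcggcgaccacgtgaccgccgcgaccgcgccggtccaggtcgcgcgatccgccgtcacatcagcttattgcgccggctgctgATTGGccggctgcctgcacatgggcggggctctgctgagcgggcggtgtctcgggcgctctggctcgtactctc
Insig1: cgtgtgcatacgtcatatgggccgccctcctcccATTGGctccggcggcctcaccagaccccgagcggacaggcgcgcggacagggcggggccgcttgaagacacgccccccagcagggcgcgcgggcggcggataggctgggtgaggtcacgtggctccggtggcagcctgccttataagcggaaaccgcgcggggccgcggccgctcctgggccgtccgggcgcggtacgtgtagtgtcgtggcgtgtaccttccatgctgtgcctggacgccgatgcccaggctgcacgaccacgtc
Scap: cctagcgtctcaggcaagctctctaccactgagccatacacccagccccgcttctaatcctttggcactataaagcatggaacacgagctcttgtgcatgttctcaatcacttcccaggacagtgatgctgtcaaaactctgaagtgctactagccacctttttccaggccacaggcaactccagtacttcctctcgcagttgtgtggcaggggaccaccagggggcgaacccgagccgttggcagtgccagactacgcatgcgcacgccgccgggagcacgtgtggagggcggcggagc
Windows were matched for 24 of the 28 genes. On both strands a CCAAT box was present in 20 of these 24 (83.3%) and in 11096 of 27025 genes of the table (41.1%), and the Sc4mol window holds 3. One SREBP element, TCACNCCAC, was present in 1 of the 24, Hmgcs1, and in 388 genes (1.44%), and the E-box CACGTG was in 5 of the 24 (20.8%) and in 2187 genes (8.09%). The Scap window has an E-box but no CCAAT box. These are counts of letters, not of bound sites, and none of the 3 motifs contains another.

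Summed over the 20 enzymes, the level was 433.2 under vehicle and 372.7 under KLA with the siCtl label, 868.4 and 725.3 with siSmyd5, and 548.7 and 338.9 with siPhf2. The 6 SREBP control genes summed to 262.1 and 357.2, 286.8 and 371.5, and 524.3 and 605.7 in the same order. The enzymes were thus lower with KLA in each arm and the control genes higher, and the enzymes stood highest in the siSmyd5-labelled libraries while the control genes stood highest in the siPhf2-labelled ones. Counting error alone put the siSmyd5 enzyme sum between 822.1 and 916.6 under vehicle and the siCtl one between 407.5 and 460.1 (exact Poisson 95% intervals). In the siPhf2-labelled arm, where the sums rest on 135 and 47 enzyme reads, the intervals ran from 460.0 to 649.4 and from 249.0 to 450.7. The control gene intervals of that arm overlapped, at 437.7 to 623.0 under vehicle and 483.2 to 749.9 under KLA. No molecular identifiers were used, so these and all later intervals cover counting error only.

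**Figure D1:**
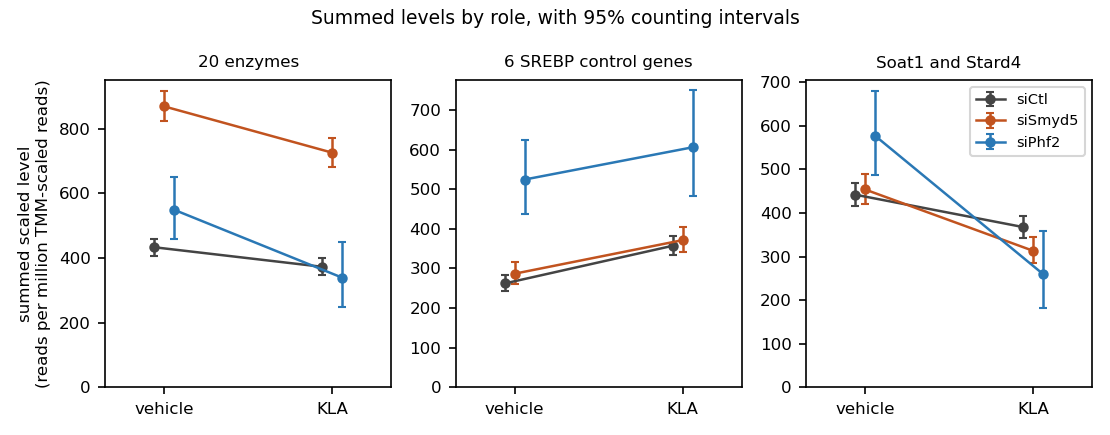
Summed level (TMM-scaled CPM) of the 20 enzymes, the 6 SREBP control genes, and Soat1 with Stard4, in vehicle and KLA libraries of the siCtl (grey), siSmyd5 (orange) and siPhf2 (blue) labels. Points are single libraries, joined by label, and bars are exact Poisson 95% counting intervals; the enzyme sum is 868.4 and 725.3 under siSmyd5 and 433.2 and 372.7 under siCtl.

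**Figure D2:**
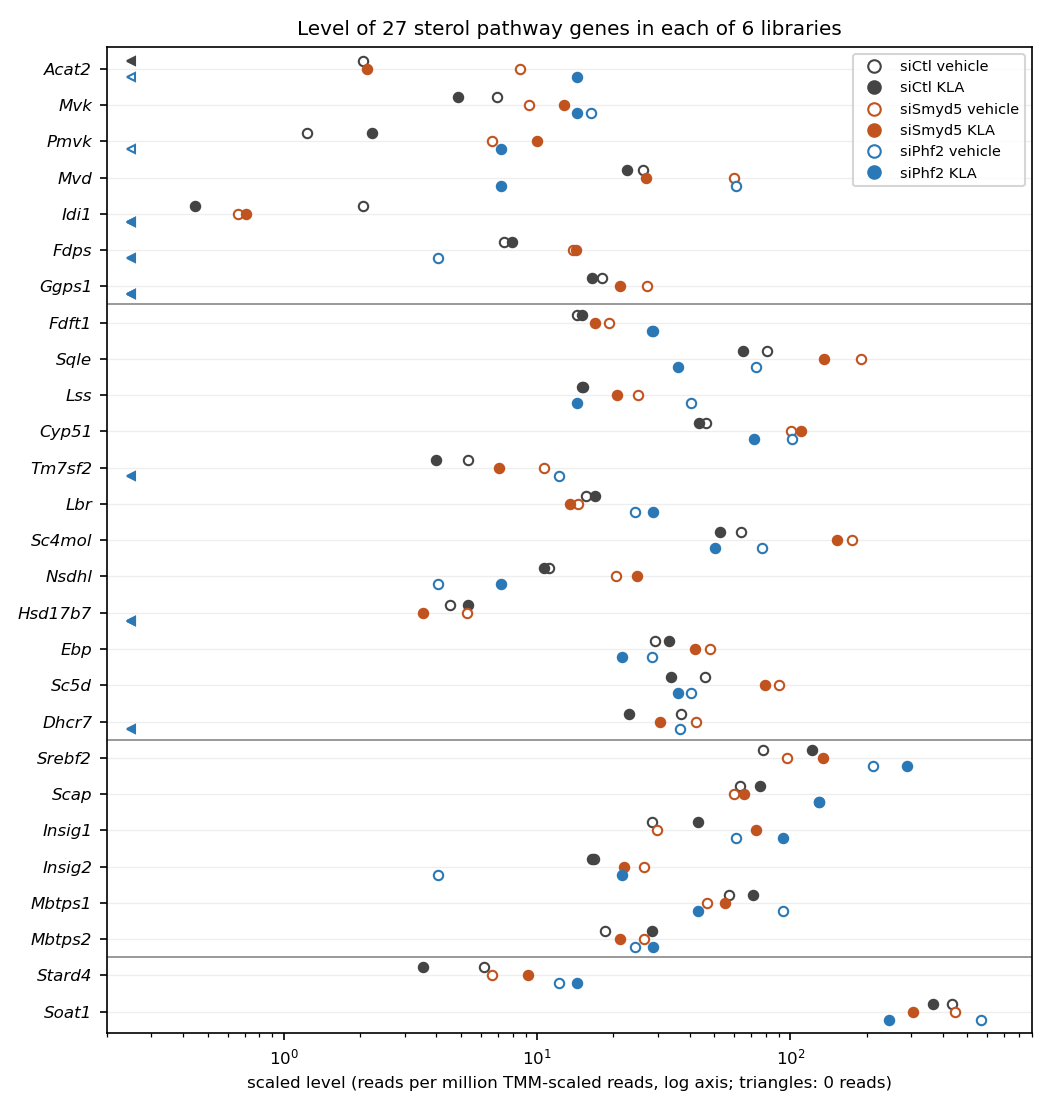
Level of 27 genes (TMM-scaled CPM, log axis) in each of 6 libraries, with open symbols for vehicle, filled symbols for KLA and triangles at the left edge for 0 reads; grey lines divide the roles, and Hmgcs1, at 0 throughout, is left out. Sc4mol, Sqle and Sc5d stand higher in both siSmyd5-labelled libraries than in the other 4, and Srebf2 stands highest in both siPhf2-labelled ones.

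What 4 hours of KLA did to the pathway was asked first with a fit that averages over the 3 siRNA arms. Insig1, the sterol-regulated retention factor, rose, and none of the other 20 genes passed. Insig1 (NM_153526, chr5:28397952-28405202, plus strand, mm9) stood at 28.3 in the vehicle and 43.0 in the KLA library of the siCtl label, at 29.7 and 73.2 under siSmyd5, and at 61.0 and 93.7 under siPhf2. It was higher with KLA in 3 of 3 arms, with a log2 fold of 0.89 (standard error 0.223; edgeR quasi-likelihood test, Benjamini-Hochberg adjusted p 0.00788). Members called higher were 1 of 21, against 11.2% of the 7995 genes tested, and members called lower were 0 of 21, against 4.6%; 6 members had an unadjusted p under 0.05, as did 2123 of the 7995 genes. Limma-voom called 1 member, Insig1 (736 genes higher and 235 lower among all 7995). DESeq2 called 0 (496 and 113), and limma on log2 values called 0 (357 and 47).

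Among the other control genes the log2 fold was 0.54 for Srebf2 (adjusted p 0.0521 in the same edgeR test), 0.23 for Mbtps2, the site-2 protease, 0.17 for Scap, 0.15 for Mbtps1, the site-1 protease, and −0.06 for Insig2. The 6 control genes had a median of 0.20, with 5 above 0, beside −0.03 for all genes tested. Srebf2 (NM_033218, chr15:81977699-82035390, plus strand, mm9) stood at 77.9 and 122.0 under siCtl, 97.1 and 134.3 under siSmyd5 and 211.3 and 288.4 under siPhf2, vehicle before KLA. Srebf2 was therefore higher with KLA in 3 of 3 arms, although it missed the threshold.

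Enzyme values lay more often below 0. Of 14 tested 11 had a log2 fold below 0, with a median of −0.13 and 0 called. Among all genes 4211 of 7995 were below 0, with a median of −0.03. The lowest were Mvd, which makes isopentenyl pyrophosphate (−0.79, edgeR adjusted p 0.0578), Dhcr7, which performs a last step to cholesterol (−0.67, adjusted p 0.106), and Sqle, the squalene epoxidase (−0.45, adjusted p 0.129). Sqle (NM_009270, chr15:59146647-59162748, plus strand, mm9) stood at 81.2 and 64.8 under siCtl, 190.3 and 135.7 under siSmyd5 and 73.2 and 36.1 under siPhf2. Its KLA library was the lower one in 3 of 3 arms. Mvk, Ebp, Fdft1 and Cyp51, the lanosterol demethylase, stood near 0, at −0.01, −0.02, −0.03 and −0.03.

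Soat1, which esterifies cholesterol for storage, also stood lower with KLA in 3 of 3 arms without passing. Its level (NM_009230, chr1:158358239-158404459, minus strand, mm9) was 436.1 and 364.3 under siCtl, 447.4 and 304.1 under siSmyd5 and 564.9 and 245.2 under siPhf2, with a log2 fold of −0.60 (edgeR adjusted p 0.0546). The vehicle libraries of Soat1 did not overlap with its KLA libraries. Stard4, a sterol carrier, had 2 to 15 reads per library and was not tested.

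The KLA calls rested on which libraries and scaling were used. When 1 siPhf2-labelled library is left out, the siRNA term fits the other exactly. The KLA effect then rests on the siCtl- and siSmyd5-labelled libraries, as it does without both, so these are not separate checks. Without both siPhf2-labelled libraries 2 members were called higher, Insig1 and Srebf2, and 4 lower, Dhcr7, Mvd, Soat1 and Sqle, of 23 tested (1276 and 729 of 8737 among all genes). The same 6 were called without the siPhf2-labelled vehicle or KLA library alone (1336 and 691 of 8296, and 1335 and 683 of 8367, among all genes). Without the siCtl-labelled vehicle or KLA library 0 were called (454 and 69 of 7546, and 405 and 71 of 7679, among all genes). Without the siSmyd5-labelled vehicle or KLA library 0 were called (412 and 70 of 7948, and 357 and 50 of 8014, among all genes). Scaling to the library total moved the median of all genes from −0.03 to −0.19 and gave 0 members higher and 2 lower (636 higher and 510 lower among all genes, against 893 and 368), and leaving Rn45s out of the total gave 1 higher and 4 lower (710 and 625 among all genes).

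Within single arms the response was described by ratios of 1 library to 1, with no replicate check and no p-value. A gene was called by size when its log2 ratio, with 2 reads added, reached 1 either way and its 95% interval left out equality. In the siCtl-labelled arm 0 of 21 members were called higher and 0 lower, against 7.18% and 2.68% of all genes. There Srebf2 stood at 1.57 of vehicle (1.30 to 1.89), Mbtps2 at 1.54 (1.03 to 2.30) and Insig1 at 1.52 (1.11 to 2.10), and intervals below 1 belonged to Dhcr7 (0.625), Sc5d (0.734), Sqle (0.798) and Soat1 (0.835, 0.762 to 0.916). Each of these shifts was smaller than 2-fold.

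In the siSmyd5-labelled arm 1 member was called higher, against 8.74% of all genes, and 1 lower, against 3.5%. Insig1 stood at 2.46 of vehicle (1.72 to 3.57), from 45 to 103 reads. Mvd, at NR_028354 (chr8:124957496-124967322, minus strand, mm9), stood at 0.449 (0.299 to 0.662), from 91 to 38 reads. That transcript is listed as noncoding; the coding one, NM_138656, had 51 and 14 reads and a ratio of 0.295 (0.151 to 0.541), an alternative chosen after seeing the data. In the siCtl-labelled arm the coding transcript stood at 1.05 (0.630 to 1.75) against 0.862 for the noncoding one, so there the 2 lay on opposite sides of 1. Srebf2 (1.38, 1.11 to 1.73), Sqle (0.713) and Soat1 (0.680, 0.601 to 0.768) lay on the same side of 1 as in the siCtl-labelled arm.

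The siPhf2-labelled arm had 0 members called higher, against 8.31% of all genes, and 3 lower, against 6.65%: Soat1 (0.434, 0.289 to 0.635, from 139 to 34 reads), Mvd (from 15 reads to 1; ratio 0.118, 0.00281 to 0.769) and Dhcr7 (from 9 reads to 0, at least 1.69-fold lower against a floor of 3 reads per library). Insig1 stood at 1.54 in this arm, from 15 to 13 reads. Its interval of 0.673 to 3.46 held 1 as well as the ratios of the siCtl-labelled (1.52) and siSmyd5-labelled (2.46) arms. With the length trend removed Soat1, at a log2 ratio of −1.0, was no longer called in this arm. Differences between the arms in their KLA response were not tested, as each arm has 1 pair of libraries.

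**Figure D3:**
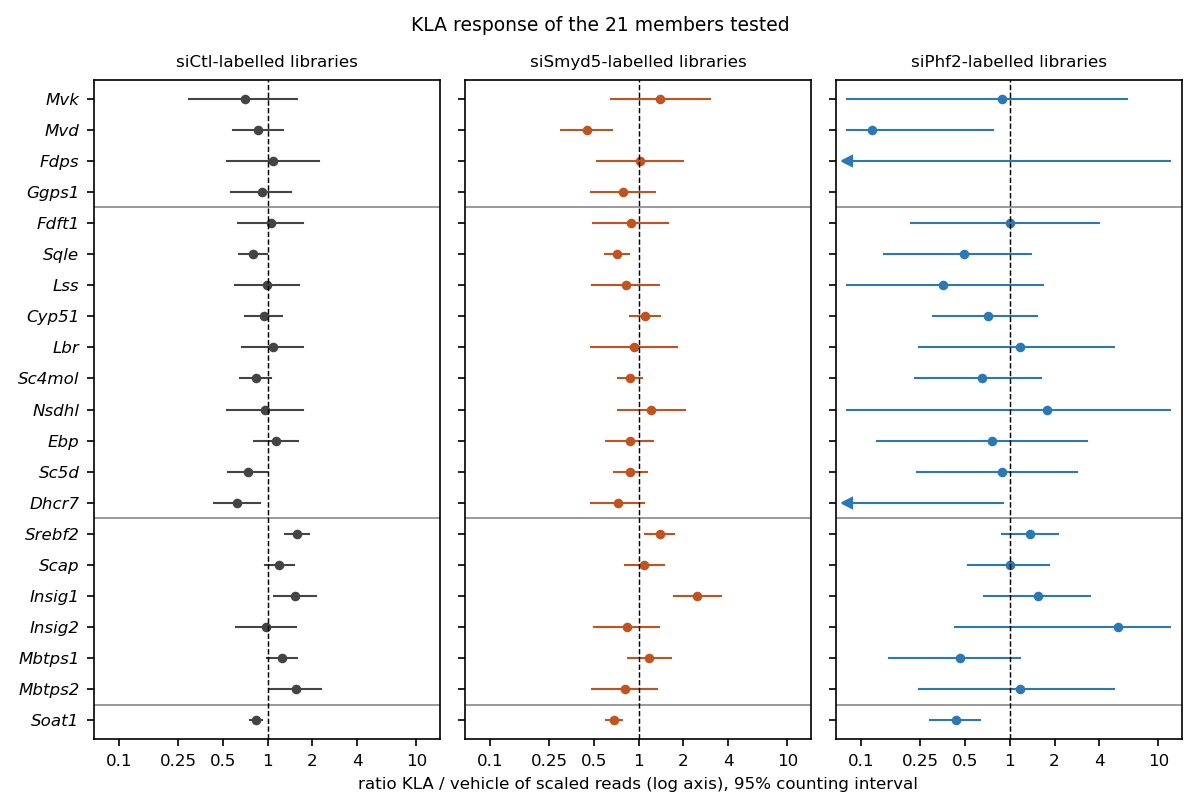
Ratio of KLA to vehicle scaled reads (log axis) for the 21 tested genes in each arm, with points for 1 library over 1 and bars for 95% counting intervals cut at the axis limits; triangles mark ratios beyond the axis, here 0 reads with KLA, and Ggps1 has 0 reads in both siPhf2-labelled libraries and no point there. Insig1 lies at 1.52, 2.46 and 1.54 and Soat1 at 0.835, 0.680 and 0.434 in the siCtl, siSmyd5 and siPhf2 panels.

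Whether the siSmyd5-labelled libraries differed from the siCtl-labelled ones was asked with the fit averaged over both agents, and 4 enzymes of late sterol synthesis rose: Sc4mol, Cyp51, Sqle and Sc5d. Sc4mol, the methyl sterol oxidase (NM_025436, chr8:67196942-67212375, minus strand, mm9), stood at 63.6 under vehicle and 52.8 under KLA with the siCtl label, and at 175.1 and 152.7 with siSmyd5. The siSmyd5 values were both above the siCtl values, with a log2 fold of 1.49 (standard error 0.198; edgeR quasi-likelihood test, Benjamini-Hochberg adjusted p 0.000811). Sqle stood at 81.2 and 64.8 against 190.3 and 135.7, a log2 fold of 1.15 (adjusted p 0.00453). Its groups also did not overlap.

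Cyp51 (NM_020010, chr5:4080674-4104697, minus strand, mm9) stood at 46.4 and 43.5 under siCtl and at 100.5 and 110.1 under siSmyd5, a log2 fold of 1.23 (adjusted p 0.00376 in the same edgeR test). Sc5d, the sterol desaturase (NM_172769, chr9:42062260-42072383, minus strand, mm9), stood at 45.9 and 33.7 against 90.5 and 79.6, a log2 fold of 1.10 (edgeR adjusted p 0.00731). For both genes the siSmyd5-labelled libraries lay above the siCtl-labelled ones under vehicle and under KLA. These 4 of 21 members were called higher, against 2.74% of all genes, and 0 lower, against 3.65%. DESeq2 called 0 members (3 genes higher and 2 lower among all 7995), limma-voom 1, Sc4mol (9 and 8), and limma on log2 values 0 (0 and 0). An unadjusted p under 0.05 was found for 8 members in edgeR (1893 of the 7995 genes), 4 in DESeq2 (505), 7 in limma-voom (1590) and 5 in limma on log2 values (490).

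Over all 14 enzymes tested, the 4 called ones included, 13 had a log2 fold above 0, with a median of 0.83, beside 0.00 for all genes. Against the siPhf2-labelled libraries, 10 of the 14 were above 0 and 4 below. In that comparison the median was 0.17 for all genes and 0.18 for the 21 members. Under vehicle alone 8 were above 0 and 6 below, Mvd, Cyp51, Fdft1, Lss, Lbr and Mvk. There the median of all genes was 0.13. The values that follow are again log2 folds against the siCtl-labelled libraries, averaged over both agents. Nsdhl, which acts beside Sc4mol in removing methyl groups, stood at 1.05 (edgeR adjusted p 0.0545), Mvk, the mevalonate kinase, at 0.87 (adjusted p 0.237), Fdps, which makes farnesyl pyrophosphate, at 0.86 (adjusted p 0.184) and Mvd at 0.80 (adjusted p 0.0904). None of these 4 passed. The value for Mvd was 0.08 without the siCtl-labelled vehicle library, 1.33 without the siCtl-labelled KLA library, 0.49 without the siSmyd5-labelled vehicle library and 0.18 with the names exchanged. Lss, which closes the sterol rings, was at 0.59, Ebp, a sterol isomerase, at 0.53, Ggps1, which makes geranylgeranyl pyrophosphate, at 0.49, Fdft1, the squalene synthase, at 0.30 and Dhcr7 at 0.28. Lbr, a nuclear membrane protein that is also a sterol reductase, was the exception at −0.21.

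Among the genes that control SREBP2 none passed. Their 6 log2 folds ran from −0.33 (Mbtps1) to 0.54 (Insig2), with a median of 0.14 and 0 called, and Srebf2 itself was at 0.22 (edgeR adjusted p 0.550), Insig1 at 0.48 (adjusted p 0.230) and Scap at −0.14. Soat1 was at −0.12. Whether enzymes and control genes differ was not tested.

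By agent, 4 members were called higher by size under vehicle, against 2.6% of all genes, and 0 lower, against 5.42%; under KLA 6 were called higher, against 1.83%, and 0 lower, against 3.76%. The vehicle and KLA ratios to the siCtl-labelled library were 2.75 (2.25 to 3.38) and 2.89 (2.30 to 3.65) for Sc4mol. Sqle stood at 2.34 (1.95 to 2.82) and 2.09 (1.68 to 2.62), and Cyp51 at 2.17 (1.69 to 2.79) and 2.53 (1.95 to 3.30). Sc5d, at 1.97 (1.52 to 2.55) under vehicle, was called by size under KLA, at 2.36 (1.75 to 3.20). The calls that appeared under 1 agent were Mvd under vehicle (2.29, 1.65 to 3.20, against 1.19, 0.763 to 1.85, under KLA, where the coding transcript stood at 0.679, 0.336 to 1.30) and Nsdhl (2.33) and Mvk (2.62, 1.17 to 6.14, from 11 and 18 reads) under KLA. With a trend on transcript length removed, 4 and 6 members were still called, with medians over the 21 of 0.53 and 0.34.

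The siSmyd5-labelled libraries were also set against the siPhf2-labelled ones, which is the comparison that holds if the 2 other names were exchanged. Under vehicle Sc4mol stood at 2.27 of the siPhf2-labelled library (1.42 to 3.83), under KLA at 3.03 (1.44 to 7.62). For Sqle the ratios were 2.60 (1.62 to 4.45) and 3.76 (1.58 to 11.7). Both genes were thus higher under the siSmyd5 label whichever of the other arms served as control. Sc5d stood at 2.23 (1.18 to 4.75) and 2.21 (0.918 to 6.93), while Cyp51 stood at 0.989 (0.645 to 1.58) and 1.53 (0.808 to 3.25) and Srebf2 at 0.460 (0.333 to 0.643) and 0.465 (0.330 to 0.672). In the averaged edgeR fit with the names exchanged Sc4mol, Sqle, Sc5d and Ggps1 were called higher and Srebf2 and Scap lower, among 943 genes higher and 1087 lower of 7995. The calls of Cyp51, Ggps1, Srebf2 and Scap thus depend on which label is taken as control.

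**Figure D4:**
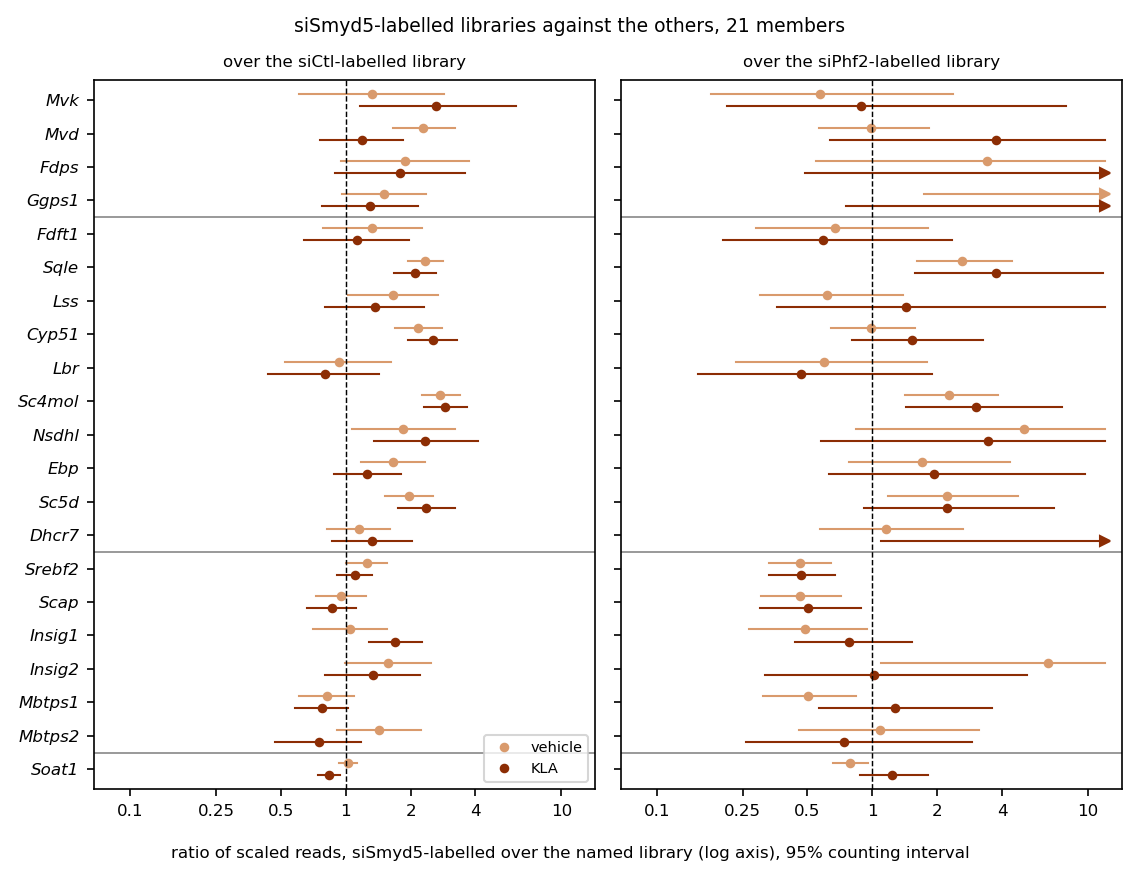
Ratio of scaled reads in the siSmyd5-labelled library to the siCtl-labelled (left) and the siPhf2-labelled (right) library of the same agent (log axis), for 21 genes under vehicle (light) and KLA (dark), with 95% counting intervals cut at the axis limits and triangles for ratios beyond the axis. Sc4mol lies at 2.75 and 2.89 on the left and 2.27 and 3.03 on the right, whereas Srebf2 lies at 0.460 and 0.465 on the right.

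Without both siPhf2-labelled libraries 6 members were called higher under the siSmyd5 label, Mvd and Nsdhl besides the first 4. That fit called 1013 higher and 1071 lower of 8737 genes. Leaving out only 1 siPhf2-labelled library rests this comparison on the same siCtl- and siSmyd5-labelled libraries, so it is not a separate check. Without the siPhf2-labelled vehicle or KLA library alone 7 were called (1145 and 1017 of 8296, and 1143 and 1017 of 8367, among all genes). Each fit without the siCtl-labelled vehicle, siCtl-labelled KLA, siSmyd5-labelled vehicle or siSmyd5-labelled KLA library keeps 1 library in 1 arm of the comparison. Calls were then lost across nearly all genes, members included. The log2 fold of Sc4mol stayed between 1.41 and 1.57 in those 4 fits. Scaled to the library total or to the total without Rn45s the same 4 members were called, with 59 and 142 genes higher and 163 and 357 lower among all genes, against 219 and 292. Of 6 neutrophil markers, S100a8 was higher under siSmyd5 (log2 fold 1.25, edgeR adjusted p 0.0378; with the names exchanged 1.53, adjusted p 0.185); the 6 summed to 11.1 and 8.43 under siCtl, 25.1 and 21.3 under siSmyd5 and 16.3 and 0 under siPhf2, with S100a9, Camp, Ngp, Mpo and Elane at 0 to 2 reads in each, and their part in the enzyme values was not tested.

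In the siPhf2-labelled libraries 2 of the 6 control genes, Srebf2 and Scap, rose against the siCtl-labelled ones, which serve as reference in both siRNA comparisons. Insig2, at a log2 fold of −0.67, lay the other way without passing. Srebf2 stood at 211.3 and 288.4 against 77.9 and 122.0, a log2 fold of 1.34 (standard error 0.246; edgeR quasi-likelihood test, Benjamini-Hochberg adjusted p 0.00121). The 2 groups did not overlap. Scap (NM_001001144, chr9:110235797-110287450, plus strand, mm9), at 130.1 and 129.8 against 63.2 and 75.9, rose by a log2 fold of 0.92 (adjusted p 0.0333). Cyp51 rose by 1.0 (edgeR adjusted p 0.0496), from 46.4 and 43.5 to 101.6 and 72.1. Insig1, at 61.0 and 93.7 against 28.3 and 43.0, had a log2 fold of 1.13 and missed the threshold (adjusted p 0.0556).

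Called higher were thus 3 of 21 members, against 8.12% of all genes, and called lower 1, against 4.52%. The lower one was Ggps1 (NM_010282, chr13:14144714-14155668, minus strand, mm9; edgeR adjusted p 0.0388), with 44 and 37 reads under siCtl, 41 and 30 under siSmyd5, and 0 and 0 under siPhf2. It was at least 1.48-fold lower than in the siCtl-labelled library under vehicle, against a floor of 3 reads per library, and under KLA the depth allowed no bound. Of the 6 control genes 5 had log2 folds above 0, with a median of 0.58, and of the 14 enzymes 7 did; the median of all genes was −0.13. Sc4mol (0.17), Sc5d (−0.07) and Sqle (−0.37), which were called higher under siSmyd5, did not pass here.

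By agent, 6 members were called higher by size under vehicle, against 10.8% of all genes, and 1 lower, against 8.87%; under KLA 2 were called higher, against 7.85%, and 0 lower, against 7.24%. The vehicle and KLA ratios of Srebf2 to the siCtl-labelled library were 2.71 (1.96 to 3.70) and 2.36 (1.65 to 3.30), and those of Insig1 2.15 (1.14 to 3.80) and 2.18 (1.12 to 3.90). The others called higher under vehicle were Lss (2.68, 1.19 to 5.49), Mvd (2.32), Cyp51 (2.19) and Scap (2.06, 1.36 to 3.03). With the length trend removed Cyp51 (log2 ratio 0.97) and Scap (0.90) were no longer called. These 4 rested on 10 to 32 reads in the siPhf2-labelled library, and under KLA none of these 4 was called.

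Directions in this arm depend on the scaling. Scaled to the library total, which Rn45s fills, the median of all genes moved from −0.13 to −2.26, and 0 members were called higher and 20 lower (38 and 7347 among all genes, against 649 and 361); Srebf2 then stood at −0.82. With Rn45s left out of the total the median was −0.60, Srebf2 was called higher and Ggps1 lower (339 and 1371 among all genes). Relative to those medians Srebf2 stayed above the bulk of genes. DESeq2 called 1 member, Srebf2 (396 genes higher and 92 lower among all 7995). Limma-voom (594 and 372) and limma on log2 values (275 and 367) called Srebf2 and Ggps1. Without the siSmyd5-labelled vehicle or KLA library 1 member was called, Srebf2 (372 higher and 184 lower of 7948, and 277 and 133 of 8014, among all genes). Fits without 1 siCtl- or siPhf2-labelled library keep 1 library in 1 arm of this comparison. The members called changed with the library left out, and these calls say little about the members. With the names exchanged these directions are turned about by construction.

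In the siPhf2-labelled libraries some fibroblast markers were lower. The 7 fibroblast and mesothelial markers summed to 829.5 and 852.8 under siCtl, 641.0 and 714.0 under siSmyd5, and 422.7 and 331.7 under siPhf2, and Col3a1 (log2 fold −2.55) and Dcn (−1.86) fell in the same edgeR test. Col1a1 (−0.62) and Col1a2 (−0.91) did not pass, and the mesothelial markers Msln and Upk3b had 0 to 4 reads per library and were not tested. In bulk RNA fewer cells of a type and less RNA per cell cannot be told apart, and the part of these cells in the member values was not tested. The macrophage markers summed to 3767.9 and 4272.8 under siCtl and 5031.5 and 5516.5 under siPhf2, but they did not move together. Csf1r (log2 fold 1.37) and Mertk (1.60) were called higher under siPhf2 and Fcgr1 (−1.18) lower. The other macrophage markers did not pass.

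Among 10 genes for degradation of sterol regulators in the endoplasmic reticulum, of which 9 were tested, KLA raised 1 and lowered 0. Over all genes tested the shares called with KLA were 11.2% higher and 4.6% lower. Rnf145, a ubiquitin ligase of this membrane, stood at 24.6 and 57.2 under siCtl, 31.1 and 60.4 under siSmyd5 and 20.3 and 137.0 under siPhf2, with a KLA log2 fold of 1.26 (edgeR adjusted p 0.000699). Rnf139, another such ligase, was higher under siSmyd5 (log2 fold 0.71, adjusted p 0.0355) and lower under siPhf2 (−2.32, adjusted p 0.00339), with 3 and 3 reads there; with the names exchanged its siSmyd5 log2 fold was 3.03 (adjusted p 8.59e-05). In the oxysterol list 1 of 3 tested rose with KLA, Ch25h, which makes an oxysterol from cholesterol. Ch25h stood at 8.61 and 52.8 under siCtl, 7.93 and 59.0 under siSmyd5 and 4.06 and 43.3 under siPhf2, a log2 fold of 2.74 (standard error 0.279; edgeR adjusted p 3.59e-07). Its vehicle and KLA levels did not overlap.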

How the data were processed

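Polyadenylated RNA of 6 mouse macrophage libraries, 1 per siRNA and agent, was fragmented, tailed, reverse transcribed with barcoded primers, circularized, amplified and sequenced on a Genome Analyzer, per the labels' protocols. The deposited unit is a signal, in which the authors scaled each library's reads on a RefSeq transcript to a total of 10000000 tags, per the file headers. HOMER and mm9 are named per the submitters' processing notes; for the aligner, strand setting and multiple matches nothing is given in the sources used here, so values of overlapping or copied genes are uncertain.

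Whole reads were recovered from the steps of the signal (within 0.02 of a whole number). This succeeded for 100% of values in each column: in both siSmyd5 columns with their own header totals, and in the siCtl and siPhf2 columns only with each other's (2.43% for both siCtl columns and 1.13% and 0.761% for siPhf2 with their own). The 2 transcripts without a symbol were left out of 29619, and 0 sample columns were unused. The 7995 genes averaging 10 reads or more per library entered an additive model of siRNA and agent with TMM scaling and 2 residual degrees of freedom, tested by quasi-likelihood in edgeR 4.0.16 (R 4.3.3; Benjamini-Hochberg threshold 0.05). The count model was used although the unit is a signal, because whole reads could be recovered. Standard errors are the log2 fold over the root of F. Single-library ratios carry exact conditional Poisson 95% intervals. Alternatives were other scalings, DESeq2 1.42.0, limma 3.58.1 (voom, and log2 of TMM-scaled CPM plus 15.2 or 1), other filters (none, or a mean of 50), 0.5 reads added, a length trend, exchanged names and libraries left out. The averaged fit and the ratios were tested on simulated data. Members, lists and tests were chosen with earlier results of these data known. All members were named; from the lists of other pathway genes, those that passed an averaged test or were called by size in at least 2 arms or agents, at most 4 per list by the size of the KLA fold. The results of 1 planned list of pathway genes are not reported here.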

Additional observations from a re-analysis of the deposited data

How the results depend on the processing

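With 1 library per group and reads recovered from a scaled signal, depth limits the siPhf2-labelled arm most, and none of the averaged counts below was stable to leaving libraries out; a fit without 1 library keeps 1 residual degree of freedom. No paired analysis was possible because the labels give no replicate numbers and each group has 1 library. Members called by KLA numbered 1, and 3 with DESeq2 size factors, 2 scaled to the total, 5 to the total without Rn45s, 0 with DESeq2 and with limma on log2 values at either pseudocount, 2 with no filter, 6 without both siPhf2-labelled libraries and 0 to 6 with 1 library left out. For siSmyd5 they numbered 4, and 0 with DESeq2 and with limma on log2 values at either pseudocount, 1 with limma-voom and 0 to 7 with 1 library left out. For siPhf2 they numbered 4, and 20 scaled to the total, 2 to the total without Rn45s, 1 with DESeq2, 2 with limma-voom, with limma on log2 values at either pseudocount and with no filter, and 0 to 4 with 1 library left out. Over all genes DESeq2 called 496 higher and 113 lower for KLA, 3 and 2 for siSmyd5 and 396 and 92 for siPhf2, and limma on log2 values 357 and 47, 0 and 0, and 275 and 367. Members called by size in the KLA ratios were 2 in the siSmyd5-labelled arm and 1 at a mean of 50 reads, 3 in the siPhf2-labelled arm and 1 at a mean of 50 reads, and by construction 3 and 0 in the arms named siCtl and siPhf2 after the exchange. The siSmyd5 ratios under vehicle gave 4, and 7 after the exchange. The siPhf2 ratios gave 7 under vehicle, with 14 scaled to the total, 1 to the total without Rn45s and 4 at a mean of 50 reads, and 2 under KLA, with 18 and 4 under those 2 scalings. Signs turned in these cases. After the exchange the averaged siSmyd5 log2 fold of Srebf2 was −1.12, and the siSmyd5 log2 ratios were −0.02 for Cyp51 and Mvd under vehicle and −0.15 for Mvk under KLA. The exchange also turned, by construction, the averaged siPhf2 log2 folds of Ggps1 (7.56, a fitted value and no bound), Cyp51 (−1.0), Srebf2 (−1.34) and Scap (−0.92), the vehicle log2 ratios of Cyp51 (−1.11), Ggps1 (3.71), Insig1 (−1.07), Lss (−1.34), Mvd (−1.17), Scap (−1.02) and Srebf2 (−1.42), and the KLA log2 ratios of Insig1 (−1.09) and Srebf2 (−1.23). Scaling to the total turned the averaged siPhf2 log2 folds of Mvd (−1.50), Fdft1 (−1.18), Lss (−1.12), Cyp51 (−1.14), Lbr (−1.44), Sc4mol (−1.96), Srebf2 (−0.82), Scap (−1.22), Insig1 (−1.03), Mbtps1 (−1.91) and Mbtps2 (−1.94), the vehicle log2 ratios of Cyp51 (−0.91), Insig1 (−0.91), Lss (−0.59), Mvd (−0.81), Scap (−1.0) and Srebf2 (−0.62), and the KLA log2 ratios of Insig1 (−1.08) and Srebf2 (−1.0). Values were followed for the 36 averaged log2 folds of tested members that were called in at least 1 setting and for the 24 log2 ratios called as reported; an alternative in which a member was not tested gave no value. Of the log2 folds 428 kept direction and call, 69 lost the call, 45 gained it and 16 turned; of their log2 ratios 133 kept within the counting interval, 6 left it and 20 turned. Beyond the exchange and the scalings, the cause was not tested.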

Other observations

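Routes that branch from cholesterol synthesis or move cholesterol were read in the same fits. Over all genes tested those fits called 11.2% higher and 4.6% lower for KLA, 2.74% and 3.65% for siSmyd5, and 8.12% and 4.52% for siPhf2. Of 11 genes of cholesterol uptake, storage and export KLA raised 1 and lowered 2: Abca1, which exports cholesterol to lipid-poor apolipoprotein, rose (log2 fold 1.58, edgeR adjusted p 5.54e-06), and Abcg1, which exports it to HDL (−1.21, adjusted p 0.00133), and Nceh1, which splits cholesterol esters (−0.74, adjusted p 0.0369), fell. Abca1 stood at 150.6 under vehicle and 427.3 under KLA with the siCtl label, 76.0 and 201.8 with siSmyd5, and 207.3 and 778.8 with siPhf2. It was the 1 gene of that list called under siSmyd5, at −1.04 (edgeR adjusted p 0.0144; with the siCtl and siPhf2 names exchanged −1.73, adjusted p 7.42e-05), and the siPhf2 comparison called 1, Apoe (1.75, adjusted p 2.03e-05).

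Of 13 lipogenic SREBP1 targets 8 were tested, in fits that called 2.74% of all genes higher for siSmyd5 and 8.12% for siPhf2. KLA changed 0 of them (edgeR; lowest adjusted p 0.464), siSmyd5 against siCtl called 1 higher, the desaturase Scd2 (log2 fold 1.08, adjusted p 0.0482; with the names exchanged −0.56, adjusted p 0.429), and siPhf2 against siCtl 2, the fatty acid synthase Fasn (2.00, adjusted p 1.94e-05) and Scd2 (1.64, adjusted p 0.0468). Fasn stood at 82.0 and 72.3 under siCtl, 63.4 and 68.9 under siSmyd5 and 373.9 and 230.8 under siPhf2. The siSmyd5 log2 fold of Fasn was −0.22, and with the names exchanged −2.22 (edgeR adjusted p 5.06e-06). Of 12 genes of prenylation, dolichol and ubiquinone synthesis 9 were tested, 0 were called for KLA or siSmyd5, and 1, Rabggtb, was higher under siPhf2 (1.37, adjusted p 0.00279). Every siPhf2 direction given here turns about when the names are exchanged. Nus1, a subunit of the dolichol-chain synthase, stood at 70.6 and 82.1 under siCtl, 81.9 and 86.0 under siSmyd5 and 24.4 and 79.3 under siPhf2. The siPhf2 levels rest on 6 and 11 reads. Nus1 passed no averaged test, with a siPhf2 log2 fold of −0.74 (edgeR adjusted p 0.24).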
